A study of Mus musculus with 4 samples.

Results

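Smooth muscle cells and pericytes are the contractile cells of duct and vessel walls. They were picked here from single cells of the dissociated mouse common bile duct. A cell was a member if it had at least 500 detected genes, at most 25% of its UMIs (unique molecular identifiers, which count captured transcripts) from mt- genes, at most 3 UMIs of Epcam, none of Ptprc or Pecam1, and a UMI of at most 1 of Msln, Upk3b and Lrrn4. It also needed a UMI of at least 3 of the 7 genes Acta2, Myh11, Tagln, Myl9, Tpm2, Cnn1 and Notch3, with Myh11 or Notch3 among them. These 13 genes chose the cells, so their levels are described with no test. There were 294 members among 22968 barcodes, of which 19246 passed the limits on genes and mt- UMIs. Of the members, 185 were in the 1 library labelled Prom1_BcatGOF, with mosaic gain of function (GOF) of Ctnnb1, the gene for beta-catenin, and 109 in 3 wild-type (WT) libraries. All 4 libraries carry the tissue label Common Bile Duct and the treatment label None. Whole ducts were taken apart with dispase and a Bacillus licheniformis protease and captured with the 10x 3′ chemistry. The labels leave undescribed the construct, the cells that drive it, the ages and the strains, and none states that the WT libraries came from different animals. The p-values below therefore reflect the spread among these WT samples, possibly a technical one, and the single GOF library was taken to vary as they do.

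Smooth muscle shortens when calcium, entering through voltage-gated channels or released from stores, activates myosin light chain kinase and lets smooth muscle myosin pull on actin filaments. Serum response factor (Srf) and its partner myocardin (Myocd) switch many contractile genes on through a short promoter element, the CArG box. Pericytes sit on capillaries inside the basement membrane, depend on Notch3 and on PDGF receptor beta, and are usually recognised by Rgs5, Kcnj8, Abcc9 and Higd1b. In the bile duct, smooth muscle lies in the fibrous wall, around the vessels of the wall and in the sphincter at the duct's end.

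Members were 185 of 10101 GOF cells past the limits, or 1.83% (exact Clopper-Pearson 95% interval 1.58 to 2.11%). In the WT libraries they were 9 of 4562 cells (0.197%, 0.0902 to 0.374%), 41 of 2480 (1.65%, 1.19 to 2.24%) and 59 of 2103 (2.81%, 2.14 to 3.60%). The GOF share thus lay within the WT range, and WT replicate 1 held few members. These intervals cover counting error only. The members' UMIs came to 1030483 in the GOF library and to 39365, 114795 and 165054 in WT replicates 1, 2 and 3, so precision for a WT gene rested mostly on replicates 2 and 3. Median UMIs per member were 4347 in the GOF library against 3918, 2708 and 2388, and the median mt- share was 4.03% against 15.7%, 13.6% and 15.5%. The GOF matrix also came from a later Cell Ranger version than the WT matrices, so genotype, library and processing cannot be told apart. No member barcode occurred in more than 1 library, although 5 to 19 of all barcodes were shared by each pair of libraries.

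**Figure D1:**
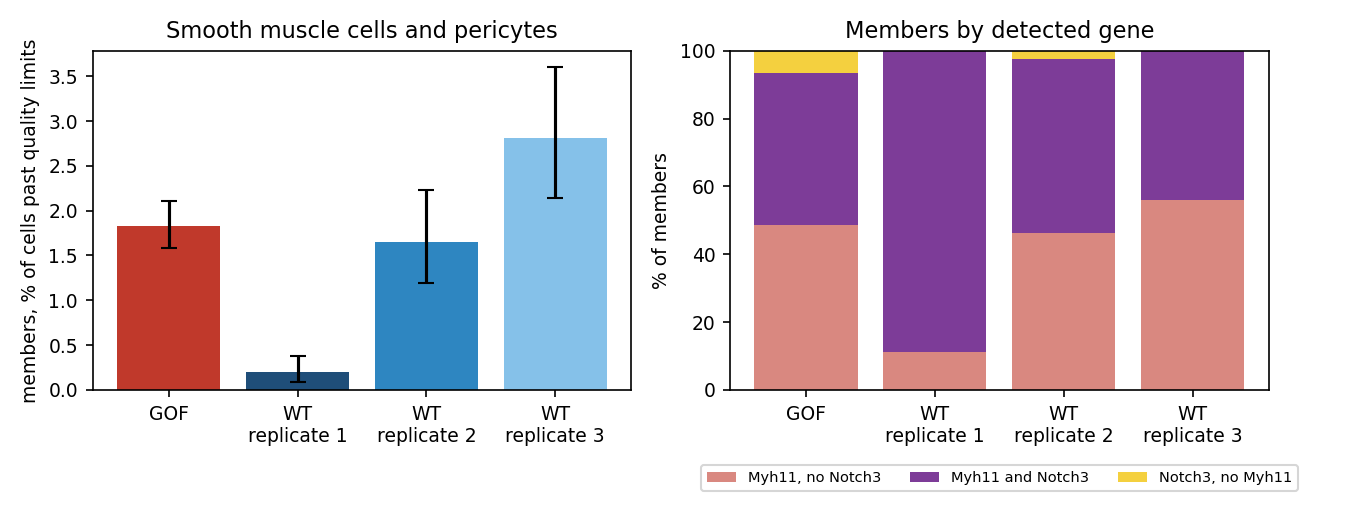
Left, members as a percent of cells past the quality limits in each library, as bars with exact 95% binomial intervals; right, the percent of each library's members holding Myh11 alone, both Myh11 and Notch3, or Notch3 alone. The GOF share of 1.83% falls between WT replicate 1 at 0.197% and WT replicate 3 at 2.81%, and Notch3 alone is seen in 12 GOF members and 1 WT member.

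Most members were well inside the limit of 3 muscle genes. At least 5 of the 7 were detected in 164 of 185 GOF members and in 9 of 9, 39 of 41 and 59 of 59 WT members, and exactly 3 in 9, 0, 1 and 0. Just outside, 90 GOF cells and 3, 31 and 12 WT cells passed the exclusions with only 2 muscle genes. A further 62 GOF cells had 3 muscle genes without Myh11 or Notch3. Among the members, 67 of 185 GOF cells and 3, 9 and 6 WT cells held UMIs of at least 2 of Krt7, Krt8, Krt18 and Krt19, and 11, 0, 1 and 1 were called doublets.

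Checked against genes that the rule did not use, the label held for smooth muscle, while pericyte genes gave a mixed picture. Des, the muscle intermediate filament, was detected in 83.2% of GOF members and in 88.9%, 80.5% and 71.2% of WT members, but also in 35.5% of GOF fibroblasts and in 14.3%, 28.9% and 7.61% of WT fibroblasts. Lmod1, a leiomodin that seeds actin filaments, was detected in 87.6% against 77.8%, 68.3% and 78.0%, and in 0 to 4.05% of fibroblasts. Fibroblasts, the comparison class throughout, were non-members with at least 3 of Pdgfra, Dpt, Col1a1, Col1a2, Col3a1, Dcn and Lum including Pdgfra or Dpt. Fibroblasts numbered 420 (GOF), 91, 173 and 197 (WT replicates), with median depths of 7656, 3672, 5076 and 1580 UMIs. Actg2, the gamma actin of visceral muscle, was detected in 63.2% of GOF members and 33.3%, 53.7% and 45.8% of WT members. After every cell was thinned to 2000 UMIs these shares were 44.3% of 158, 11.1% of 9, 44.8% of 29 and 48.7% of 39 cells, and the GOF share no longer led.

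The 4 pericyte genes Rgs5, Kcnj8, Abcc9 and Higd1b were scarce. Rgs5, a regulator of G-protein signalling, was detected in 8.11% of GOF members and in 1 member of each WT library (11.1%, 2.44% and 1.69%), against 1.19% or less of fibroblasts. Abcc9, the regulatory subunit of a potassium channel, was found in 8.65% of GOF members and in no WT member, which allows shares of cells with a UMI of up to 33.3%, 7.32% and 5.08%. These limits concern detection at this depth, not expression. Its channel partner Kcnj8 was detected in 8.65%, 11.1%, 4.88% and 0% of members. Both genes were detected in more fibroblasts than members, at 32.9%, 20.9%, 8.09% and 22.8% for Abcc9. At least 2 of Rgs5, Kcnj8, Abcc9 and Higd1b were present in 14 of 185 GOF members and 1, 0 and 1 WT members, while none of the 4 was present in 138, 5, 37 and 56. Other pericyte genes were detected more widely. Cspg4 was detected in 58.9% of GOF members and 55.6%, 53.7% and 49.2% of WT members, against 5.48% or less of fibroblasts. Mcam was detected in 43.8% against 88.9%, 53.7% and 39.0%, and in 1.67% or less of fibroblasts. Pdgfrb was detected in 36.8% against 77.8%, 26.8% and 32.2%, but also in 28.3% of GOF fibroblasts and in 27.5%, 16.8% and 13.7% of WT fibroblasts. Ndufa4l2 was detected in 22.7% against 33.3%, 29.3% and 15.3%, and in 5.78% or less of fibroblasts. Des and Lmod1 were thus detected in most members, while pericyte genes ranged from absent to common at this depth.

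**Figure D2:**
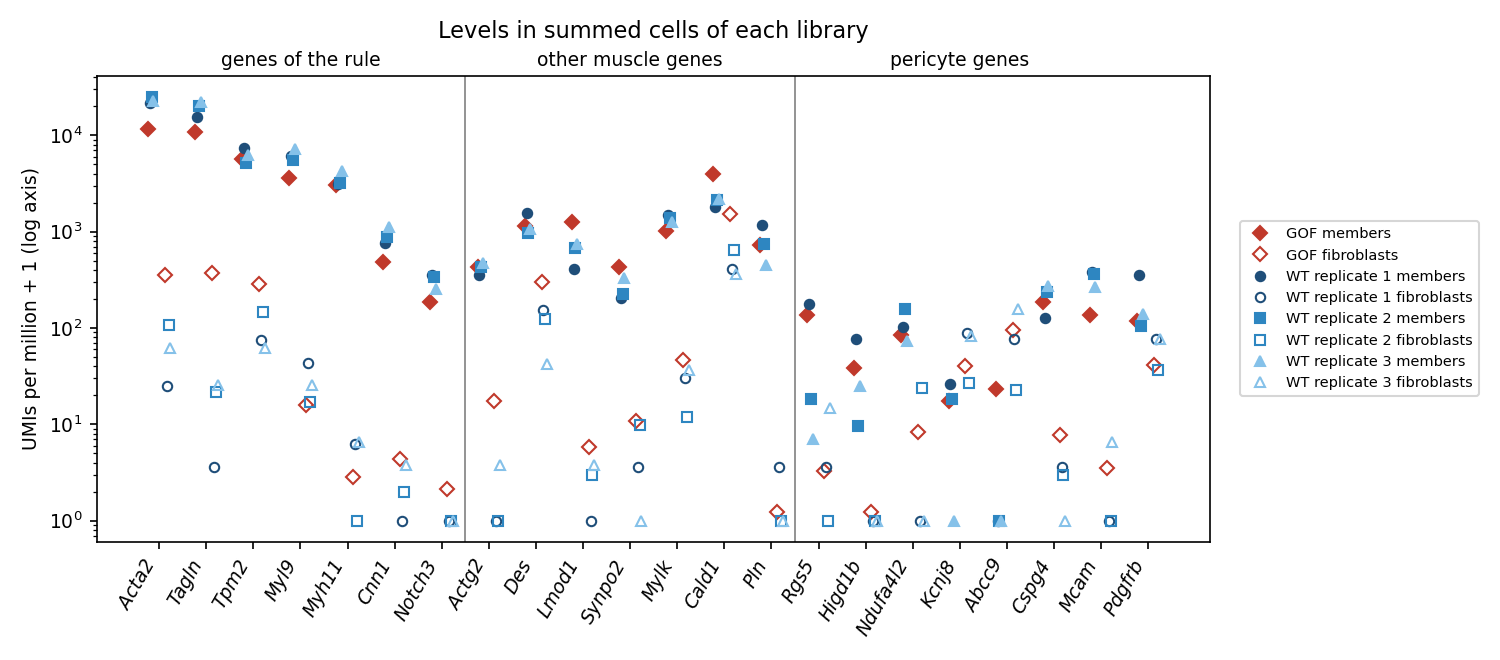
Level of the genes of the rule, other muscle genes and pericyte genes in members (filled points) and fibroblasts (open points) of each library, as CPM plus 1 on a log axis. Des is at 976 to 1576 CPM in the members of the 4 libraries, while Rgs5 ranges from 6.06 to 178 CPM.

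The genes of the rule were high in every library. Levels are CPM, a gene's UMIs per 1000000 UMIs of a library's members, and are compared between libraries, not between genes. Acta2, smooth muscle actin, stood at 11674 CPM in the GOF members and at 21476, 25090 and 22895 CPM in WT replicates 1, 2 and 3. Tagln, an actin-binding calponin relative, stood at 10830 against 15656, 20417 and 21985 CPM, and Cnn1, calponin, at 478 against 762, 872 and 1116 CPM. Myh11, smooth muscle myosin heavy chain (chr16:14194535-14291372, minus strand, GRCm38), stood at 3061 against 3101, 3217 and 4275 CPM. Notch3 (chr17:32120820-32166852, minus strand) stood at 187 against 356, 340 and 255 CPM, while Tpm2, a tropomyosin, at 5644 CPM lay inside its WT range of 5117 to 7447 CPM. Of the 7 muscle genes of the rule, 6 were below every WT library in the GOF members, Myl9 included (3615 against 6151, 5510 and 7167 CPM). Without the 12 GOF cells described below that have Notch3 and no Myh11, Myh11 stood at 4049 CPM, inside its WT range, and Acta2 at 15182 CPM, below it.

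In WT ducts the genes that most set members apart from fibroblasts included muscle genes beyond those of the rule. They also included genes listed here as pericyte genes, among them Rgs4, Gja4, Mcam and Cspg4. The rule splits these cells, so the contrast is a description. Pln, phospholamban, which restrains the calcium pump of the sarcoplasmic reticulum, stood at 1169, 750 and 449 CPM in the members of WT replicates 1, 2 and 3 against 2.64, 0 and 0 CPM in fibroblasts. Pcp4l1 stood at 635, 462 and 443 CPM with no UMI in any WT fibroblast, at least 299-fold higher by a floor of 3 counts over the group. Ppp1r14a, an inhibitor of myosin phosphatase, stood at 1042, 1011 and 1461 CPM against 10.5, 7.95 and 11.0 CPM. Rgs4, another regulator of G-protein signalling, was at 712, 296 and 176 CPM against 0, 0 and 2.74. Of the 25 largest ratios, others belonged to Lmod1, Pdlim3, Itga8, Gja4 (the connexin 37 of vessel walls), Mcam, Cspg4 (the NG2 proteoglycan), Kcnmb1 and Hspb6. In the other direction, Cxcl13, a B cell chemokine, was at 0, 0 and 6.06 CPM in members and at 2555, 2620 and 4522 CPM in WT fibroblasts. Trf (transferrin), Inmt, Dpep1, Penk, Igfbp3, Fbln2, Il33, Pi16 and Htra3 followed, each with 1 or 2 UMIs in all WT members.

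The CArG box was looked for in the 250 bases before the start of genes in the RefSeq promoter table (build GRCm38.p6). Genes of 1 chromosome were left out of this search. The element is its own reverse complement in form, so 1 search covers both strands. It was found for 439 of 27025 genes (1.62%), for 1 of 5 matched muscle genes of the rule (Myl9), for 5 of 28 contractile genes (Fhl1, Ldb3, Myl6, Srf and Vcl) and for 2 of 22 immediate early genes (Egr2 and Zfp36). It was found for 0 of 16 pericyte genes and 0 of 17 genes of oxidative phosphorylation. The 3 stretches below show it for a gene of the rule, for a contractile gene and for an immediate early gene, with the box in capitals. They lie at chr2:156775258-156775357 (plus strand), chr14:20929148-20929225 (plus strand) and chr7:28379232-28379331 (minus strand), and the box begins 161, 227 and 58 bases before the start. A match is a description of the letters, not of binding.
Myl9: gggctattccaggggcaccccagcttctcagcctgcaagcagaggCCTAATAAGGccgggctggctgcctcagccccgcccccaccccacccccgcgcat
Vcl: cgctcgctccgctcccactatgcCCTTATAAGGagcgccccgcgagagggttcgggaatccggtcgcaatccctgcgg
Zfp36: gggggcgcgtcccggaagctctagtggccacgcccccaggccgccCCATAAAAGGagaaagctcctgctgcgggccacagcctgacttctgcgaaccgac

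Members differed by which of the 2 required genes they held. Myh11 without Notch3 was found in 90 GOF and 1, 19 and 33 WT members, both in 83 GOF and 8, 21 and 26 WT members, and Notch3 without Myh11 in 12 GOF members and 0, 1 and 0 WT members. The 12 GOF cells were large, with a median of 23925.5 UMIs, and supplied 24.4% of all GOF member UMIs. They carried little muscle RNA, with Acta2 at 818 CPM against 17482 CPM in GOF members with both genes, Myl9 at 64 CPM and Lmod1 at 12 CPM. They were rich in matrix RNA instead, with Col1a1 at 4665 CPM, Col1a2 at 8056 CPM, Dcn at 3408 CPM and Timp1, an inhibitor of metalloproteinases, at 5674 CPM. Set against the other GOF members, Piezo2 (646 against 6.45 CPM), Hist1h1b (447 against 2.58 CPM) and Cdh2 led, genes chosen after their values were seen. These cells bear on several results below, which are given with and without cells that have Notch3 and no Myh11, a setting chosen after the data were seen. In WT replicate 1 the single member with Myh11 alone held 9.95% of the UMIs and was rich in Col1a1 (12267 CPM), Dcn (9711 CPM) and Sfrp1 (6900 CPM).

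Before the GOF comparison, the targeted gene was read. Ctnnb1 stood at 133 CPM in GOF members and at 50.8, 131 and 152 CPM in WT members, a log2 difference of -0.02 ± 0.39 (SE, edgeR adjusted p = 0.986). Reads at the 3′ end count the gene's RNA and do not show whether a cell carried the altered allele. Of the feedback genes that canonical Wnt signalling is known to switch on, only Nkd1 had enough UMIs to be tested in members, with 73.1 CPM against 203, 78.5 and 60.6 CPM (log2 difference -0.38 ± 0.52, edgeR adjusted p = 0.69). Axin2 had 10 UMIs in GOF members and 1, 0 and 0 in WT members. Notum had 4, 0, 0 and 0 UMIs, and Lgr5 had 2, 0, 0 and 1. In epithelial cells of the same libraries the log2 differences were 4.03 for Axin2, 5.58 for Nkd1 and 4.97 for Notum.

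UMIs were summed over the members of each library and the GOF sum was compared with the 3 WT sums. Of 3420 genes tested, 691 passed an edgeR adjusted p of 0.05 (20.2%), 510 of them higher (14.9%) and 181 lower (5.29%) in GOF members. The call count without 1 WT replicate ranged from 337 (without replicate 2) to 1023 (without replicate 1), and DESeq2 called 137. Without cells that have Notch3 and no Myh11 there were 514 calls. The median log2 difference over all genes was 0.05 with TMM scaling and 0.20 without it. Genes with long introns were more often higher: of 2556 genes with over 5 kb of intron, 407 rose and 87 fell with a median of 0.18, while of 864 genes with at most 5 kb, 103 rose and 94 fell with a median of -0.25. Whether intronic reads were counted in each library is not given in the sources used here, and the part of this in any single gene was not tested, so intron lengths are given below.

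**Figure D3:**
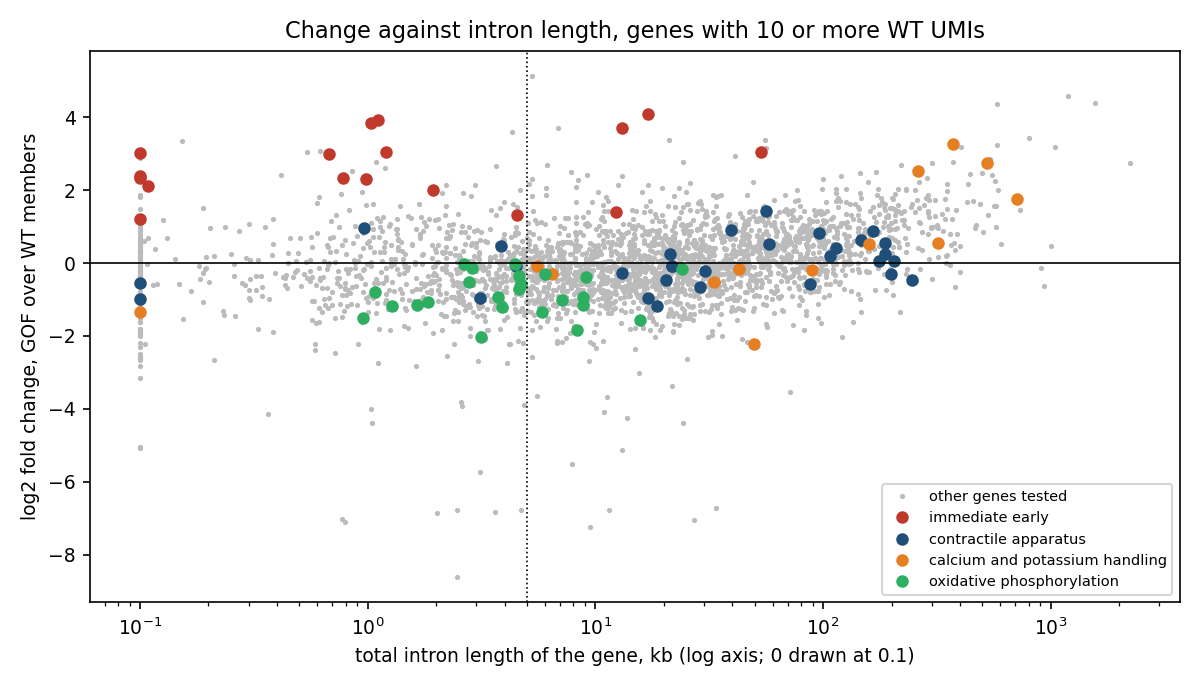
Log2 difference between GOF and WT members (vertical axis) against the total intron length of the gene (kb, log axis, genes without introns drawn at the left edge), 1 point for each of the 2943 tested genes with 10 or more WT UMIs, with 4 gene lists in colour and a dotted line at 5 kb. Over all tested genes the median is 0.18 above that line and -0.25 at or below it, and immediate early genes lie high on both sides.

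Of 32 genes of the contractile apparatus, 31 were tested, of which 1 rose and 1 fell, with a median log2 difference of 0.05 beside 0.05 over all genes. Over all genes tested, 14.9% rose and 5.29% fell. Without the cells that have Notch3 alone the median was 0.31 beside 0.04 over all genes. Myocd, the muscle-specific partner of Srf (chr11:65176561-65269989, minus strand, 87.0 kb of intron), stood at 318 CPM in GOF members and at 25.4, 17.4 and 12.1 CPM in WT members. It rose by 4.22 ± 0.49 on the log2 scale (edgeR adjusted p = 8.46e-07), from only 5 WT UMIs. Low in every WT library, Myocd entered the test only through the GOF library, where it is high. Its call is thus no support for a rise of the list. Smtn, smoothelin, a cytoskeletal protein of contractile muscle, stood at 276 against 432, 610 and 685 CPM and fell by 1.17 ± 0.42 (edgeR adjusted p = 0.0476). Its call was lost without WT replicate 2 (adjusted p = 0.225), without WT replicate 3 (0.0636) and without the cells that have Notch3 alone (0.192).

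The remaining contractile genes went both ways. Cald1, caldesmon, stood at 3961 against 1805, 2145 and 2195 CPM (log2 difference 0.89 ± 0.35, edgeR adjusted p = 0.0756). Lmod1 stood at 1248 against 407, 671 and 746 CPM (0.92 ± 0.38, edgeR adjusted p = 0.0931). Both were above all WT libraries, as were 12 of the 31 genes, while 11 were below (36.8% and 23.4% of all genes tested). Myl6, the myosin essential light chain, stood at 6223 against 11361, 11717 and 12545 CPM (-0.97 ± 0.37, edgeR adjusted p = 0.0648). Actg2 at 425 CPM lay within its WT values of 356, 427 and 473 CPM (-0.08 ± 0.38). Without the cells that have Notch3 alone, 5 contractile genes rose and 0 fell, among them Cald1 (1.05, edgeR adjusted p = 0.0313) and Lmod1 (1.32, edgeR adjusted p = 0.0109). Over all genes tested in that setting, 386 of 3301 rose and 128 fell.

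Genes of calcium and potassium handling gave 5 rises and 1 fall among 14 tested of 22 listed, with a median of 0.22. Over all genes tested, 14.9% rose and 5.29% fell. Cacna1c, the pore of the L-type calcium channel that starts contraction, stood at 465 CPM in GOF members and at 0, 0 and 42.4 CPM in WT members (log2 difference 4.33 ± 0.53, edgeR adjusted p = 1.91e-06). Its subunit Cacnb2 stood at 488 against 50.8, 52.3 and 42.4 CPM (3.28 ± 0.40). Ryr2, a calcium release channel, stood at 270 against 25.4, 52.3 and 30.3 CPM (2.75 ± 0.43). Kcnab1 (2.52 ± 0.40) and Kcnma1, the large-conductance potassium channel (1.77 ± 0.39), rose as well, and GOF members lay above every WT library for all 5. Cacna1c, Cacnb2 and Ryr2, low in every WT library, entered the test only through the GOF library, where they are high. The count of rises is thus no support for a rise of the list. Each of these 5 genes has over 250 kb of intron, from 260 kb in Kcnab1 to 708 kb in Kcnma1. Pln (5.56 kb) stood at 724 against 1169, 750 and 449 CPM (-0.07 ± 0.40) and Kcnmb1 (6.44 kb) at 86.7 against 76.2, 87.2 and 121 CPM (-0.30 ± 0.47). Itpr1, a release channel with 320 kb of intron, stood at 237 against 178, 174 and 127 CPM and was not called (0.55 ± 0.35). Cacna1h, a T-type channel with 49.7 kb of intron, stood at 17.5 against 76.2, 87.2 and 72.8 CPM and fell by 2.21 (edgeR adjusted p = 0.0489), a call lost without WT replicate 1 (0.0705), 2 (0.429) or 3 (0.61) and without TMM scaling (0.104). DESeq2 called 2 of the list.

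Among receptors and their downstream enzymes, 9 of 36 listed genes had enough UMIs, of which 2 rose and 1 fell. Over all genes tested, 14.9% rose and 5.29% fell. Prkg1, the kinase through which nitric oxide relaxes muscle (chr19:30564489-31765033, minus strand, 1190 kb of intron), stood at 1215 CPM in GOF members and at 25.4, 78.5 and 30.3 CPM in WT members. It rose by 4.59 ± 0.45 (edgeR adjusted p = 9.49e-08), and the values in fibroblasts, epithelium and endothelium of the same libraries were 5.13, 6.59 and 5.71. Pde3a, a phosphodiesterase that breaks down cyclic nucleotides, stood at 530 against 229, 201 and 109 CPM (1.62 ± 0.38, edgeR adjusted p = 0.00338, 245 kb of intron). S1pr3, a sphingosine-1-phosphate receptor, stood at 83.8 against 178, 227 and 188 CPM and fell by 1.33 ± 0.36 (edgeR adjusted p = 0.0105), a call lost without WT replicate 2 (0.225). The subunits of the nitric oxide receptor were not called, with Gucy1a1 at 431 against 203, 445 and 364 CPM.

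Of 22 listed pericyte genes 15 were tested, none rose and 3 fell (5.29% of all genes tested did), with a median of -0.40. Rgs4 (chr1:169741477-169747642, minus strand) stood at 85.7 CPM in GOF members and at 712, 296 and 176 CPM in WT members and fell by 1.99 ± 0.48 (edgeR adjusted p = 0.00392). Cox4i2, a cytochrome c oxidase subunit typical of pericytes, stood at 20.5 against 203, 78.5 and 78.8 CPM and fell by 2.34 ± 0.63 (edgeR adjusted p = 0.00925), which was lost without WT replicate 1 (0.0745) or 3 (0.234). Mcam, an adhesion molecule of mural cells, stood at 134 against 381, 366 and 267 CPM and fell by 1.34 ± 0.39 (edgeR adjusted p = 0.0154), which was lost without WT replicate 2 (0.173) and without the cells that have Notch3 alone (0.082). GOF values lay below every WT library for these 3 genes, and DESeq2 called none of the list. These values changed with the cells counted. Without the cells that have Notch3 alone the median was 0.02 with 1 rise and 2 falls. In members with no Epcam UMI and at most 1 of the 4 keratins it was 0.15 with no call, Rgs4 included (edgeR adjusted p = 0.246). Rgs5 stood at 134 against 178, 17.4 and 6.06 CPM, within the WT range. In sums over cells, fewer pericytes among the members and less of a transcript per cell cannot be told apart.

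Notch signalling, which keeps mural cells differentiated, gave 1 call among 8 tested of 16 genes, with a median of -0.62. The ligand Jag1 stood at 92.6 CPM in GOF members and at 254, 113 and 146 CPM in WT members (-0.78 ± 0.39, edgeR adjusted p = 0.167). The target Heyl stood at 95.5 against 127, 157 and 230 CPM (-1.03 ± 0.38, edgeR adjusted p = 0.055) and Hey2 at 51.6 against 152, 78.5 and 103 CPM (-1.05 ± 0.50, edgeR adjusted p = 0.147). These 3 and Nrip2, 4 of the 8 tested genes, lay below every WT library (23.4% of all genes tested did) without passing the test. The coactivator Maml2 rose (164 against 0, 26.2 and 24.3 CPM, 2.81 ± 0.59, edgeR adjusted p = 0.00114) and has 405 kb of intron. Maml2 entered the test only through the GOF library, where it is high, so its call is no support for a rise of the list. Of 17 genes of PDGF, angiopoietin and VEGF signalling 8 were tested and 3 rose, each from 3 WT UMIs or fewer. Genes with so few WT UMIs enter the test only through the GOF library, where they are high, so this count is no support for a rise of the list. Without the cells that have Notch3 alone 1 of 7 rose. Angptl4 stood at 125 against 25.4, 0 and 0 CPM, a ratio of 39.8 (counting interval 7.01 to 1584), and 71.9% of its GOF UMIs lay in the 12 cells with Notch3 alone. Vegfc, a growth factor of lymphatic vessels, had 77.8% there, and its call was lost without WT replicate 2 (edgeR adjusted p = 0.14). The receptor Pdgfrb stood at 118 against 356, 105 and 139 CPM (-0.53 ± 0.40, edgeR adjusted p = 0.407), inside the WT range.

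The immediate early genes, transcription factors and regulators that cells switch on soon after a stimulus, stress or tissue dissociation, gave more rises than any other list. Of 26 listed, 21 were tested and 20 rose, with a median of 3.00 against 0.05 over all genes, and 20 stood above every WT library. Over all genes tested, 14.9% rose and 36.8% stood above every WT library. Atf3, Klf4 and Nr4a1 were among those that entered the test only through the GOF library, where they are high. The count thus partly reflects the filter on low counts. Fos (chr12:85473890-85477273, plus strand) stood at 3733 CPM in GOF members and at 102, 323 and 255 CPM in WT members (3.84 ± 0.39, edgeR adjusted p = 1.54e-07). Jun, its partner in AP-1, stood at 1427 against 152, 201 and 146 CPM (3.02 ± 0.37). Atf3, a stress-response factor, stood at 790 against 0, 0 and 12.1 CPM, a ratio of 126 (counting interval 34.8 to 1042). GOF members thus lay far above every WT library for these genes, and Fos and Jun have introns of 1.03 kb and none. Klf4, a factor known to oppose the contractile programme in muscle (chr4:55527143-55532466, minus strand), stood at 549 against 0, 8.72 and 48.5 CPM (4.21 ± 0.49, edgeR adjusted p = 1.06e-06). Klf2 stood at 1268 against 254, 288 and 194 CPM (2.33 ± 0.36) and Nr4a1, a nuclear receptor, at 694 against 50.8, 52.3 and 24.3 CPM (4.09 ± 0.43). Zfp36, the RNA-decay factor whose promoter stretch is printed above, stood at 454 against 25.4, 61.0 and 121 CPM (2.34, chosen for that promoter after its values were seen). Fosl2 at 119 CPM was the tested gene not called, with WT values of 127, 17.4 and 36.4 CPM.

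**Figure D4:**
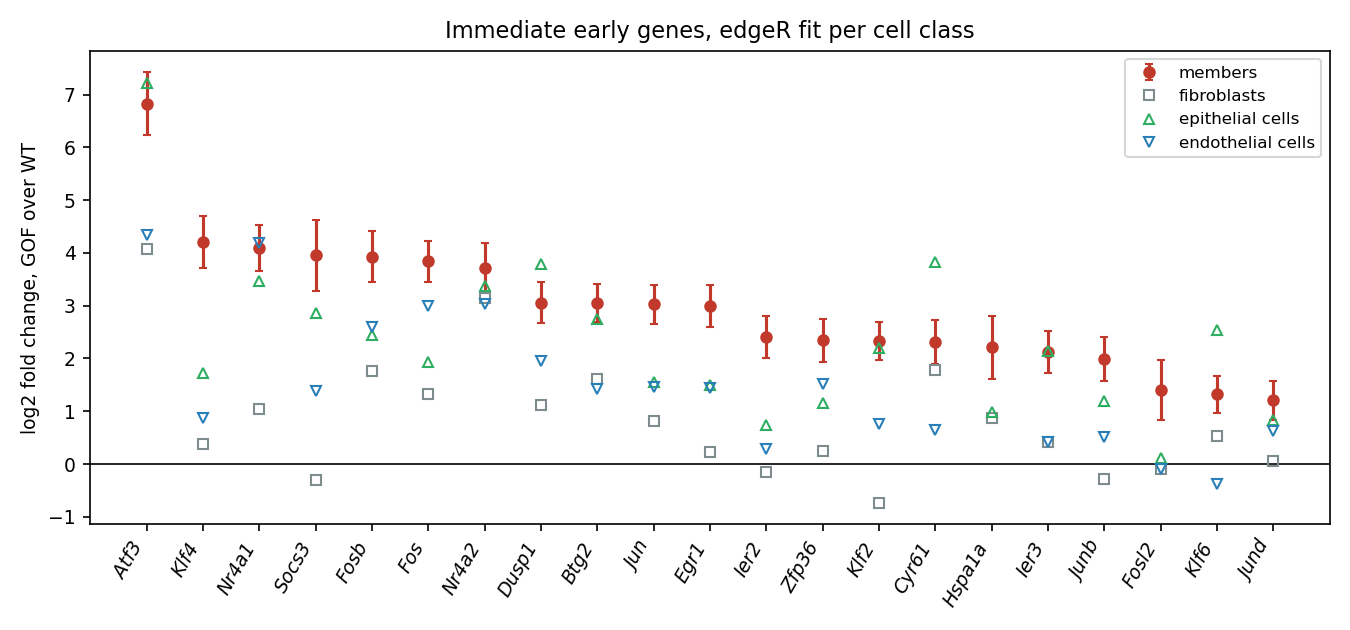
Log2 difference between GOF and WT for the 21 tested immediate early genes, in members (filled, with SE bars) and in fibroblasts, epithelial and endothelial cells (open, without bars). The median is 3.00 in members, 0.53 in fibroblasts, 2.13 in epithelium and 1.41 in endothelium.

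The rise held without the cells that have Notch3 alone (20 of 21) and in members with no Epcam UMI and at most 1 of the 4 keratins (18 of 21), while DESeq2 called 14. The summed level of the list was 20982 CPM in GOF members against 2237, 3644 and 3074 CPM, and 8779 CPM in GOF fibroblasts against 3958, 5153 and 6670 CPM. Medians in the other classes were 0.53 in fibroblasts, 2.13 in epithelium and 1.41 in endothelium. The difference between the effect in members and that in fibroblasts was tested with the library as a block, and 5 of 21 passed: Klf4, Socs3, Klf2, Egr1 (chosen after its values were seen) and Nr4a1. Over all genes tested for this difference, 0.642% passed in the positive direction. Klf2 no longer passed without WT replicate 1 (edgeR adjusted p = 0.0619) or 2 (0.226), nor Nr4a1 without WT replicate 3 (0.467). In members with no Epcam UMI and at most 1 of the 4 keratins, the differences of Klf4 (0.212), Klf2 (0.279) and Nr4a1 (0.328) did not pass, while that of Socs3 did (0.0128). For Klf4 fibroblasts stood at 415 CPM in the GOF library and at 240, 213 and 395 CPM in the WT libraries, and the effect was larger in members by 4.06 ± 0.83 (edgeR adjusted p = 0.000746). For Socs3, an inhibitor of cytokine signalling, fibroblasts stood at 127 against 119, 142 and 148 CPM, and the difference was 4.26 ± 0.90 (edgeR adjusted p = 0.00127). Fos did not pass this test (2.48, edgeR adjusted p = 0.0624). The mt- share also differed between the groups, as given above, and its part in these values was not tested.

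Matrix genes were listed in a pair of groups, those of basement membrane and elastic fibres and those of fibroblasts. Of 27 basement membrane and elastic genes 19 were tested, 4 rose and 1 fell, with a median of 0.60. Over all genes tested, 14.9% rose and 5.29% fell. Mgp, matrix Gla protein, an inhibitor of calcification in vessel walls (chr6:136872435-136875823, minus strand, 2.20 kb of intron), stood at 4634 CPM in GOF members and at 788, 924 and 1237 CPM in WT members. It rose by 2.15 ± 0.35 (edgeR adjusted p = 9.12e-05) and by 2.43 without the cells that have Notch3 alone. Col4a5, a collagen IV chain, rose by 1.89 ± 0.38 (247 against 50.8, 69.7 and 60.6 CPM), but entered the test only through the GOF library, where it is high. Sparcl1, a secreted matrix protein, stood at 1916 against 4244, 4193 and 5584 CPM and fell by 1.34 ± 0.40 (edgeR adjusted p = 0.0188), which was lost without WT replicate 2 (0.105) and without the cells that have Notch3 alone (0.0961).

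Of 18 genes of fibrillar collagen and fibroblasts 16 were tested and 6 rose (14.9% of all genes tested did), with a median of 1.15. Col1a2 stood at 2580 CPM in GOF members and at 991, 209 and 170 CPM in WT members (2.77 ± 0.49, edgeR adjusted p = 0.000173), and 76.2% of the GOF UMIs came from the 12 cells with Notch3 alone. Without such cells the difference was 1.11 (edgeR adjusted p = 0.136). Col1a1 gave 1.95 ± 0.60 with them (1539 against 1271, 113 and 152 CPM) and 0.41 without them (edgeR adjusted p = 0.749), and was not called without WT replicate 2 (0.101) either. Dcn gave 1.86 ± 0.62 (edgeR adjusted p = 0.036) and 0.40 (0.766), and was not called without WT replicate 2 (0.0549). This setting kept the matrix-rich member of WT replicate 1, which has Myh11. That member stood at 12267 CPM of Col1a1, against 56.4 CPM in the other members of its library. The GOF members kept stood at 529 CPM of Col1a1 and 811 CPM of Col1a2. The part of that WT member in the lost calls was not tested. Only 1 of 15 genes of the list was called without the cells that have Notch3 alone, Col6a1 (2.37, edgeR adjusted p = 0.0132), and DESeq2 called none. In contrast, Sparc, an abundant matrix glycoprotein with 57.5% of its GOF UMIs in the 12 cells, gave 1.96 ± 0.37 with them and 1.14 without (edgeR adjusted p = 0.0312).

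**Figure D5:**
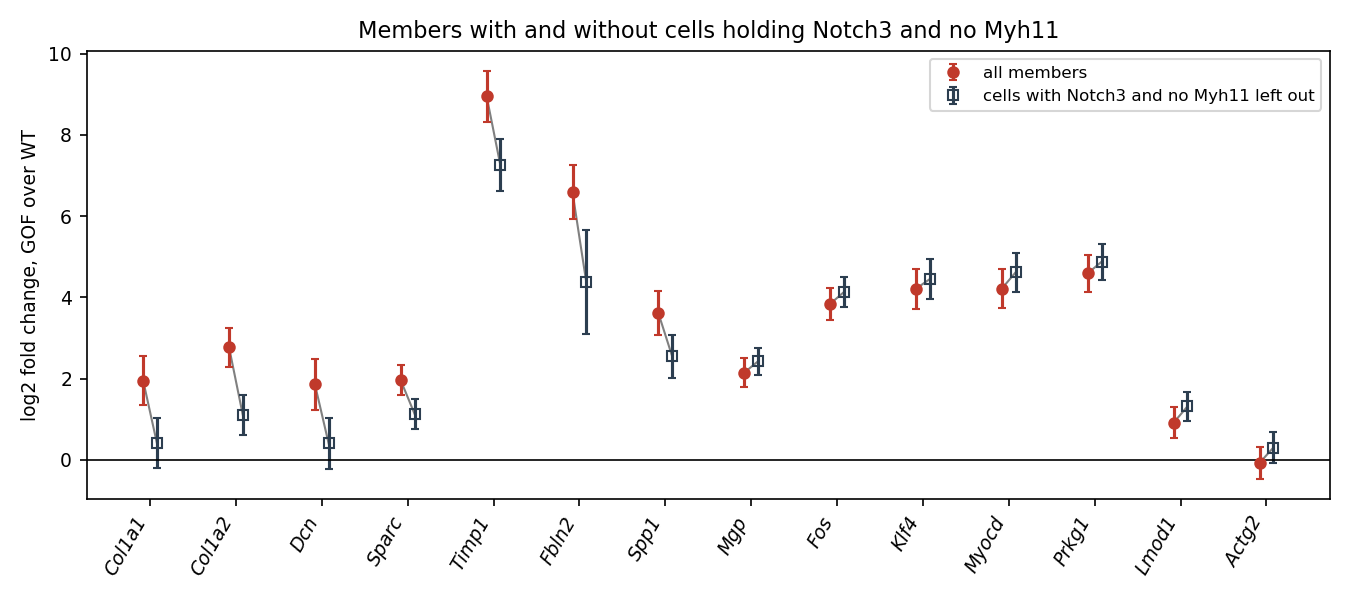
Log2 difference between GOF and WT members (points with SE bars) over all members and without cells that have Notch3 and no Myh11, joined by a line for each gene. Col1a1 drops from 1.95 to 0.41, while Mgp goes from 2.15 to 2.43.

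Of 19 cytokine and chemokine genes 7 were tested and 5 rose: Il6, Ccl2, Cxcl1, Il1r1 and Vcam1. These too had few WT UMIs or none and were tested because the GOF level was high, so the count is no support for the list. Il6 stood at 73.1 CPM in GOF members with no WT UMI, at least 7.77-fold higher (a call lost without WT replicate 2, edgeR adjusted p = 0.101), and Ccl2, a monocyte chemokine, at 237 against 0, 8.72 and 0 CPM, a ratio of 75.5 (counting interval 13.4 to 2995). Of their GOF UMIs 74.7% and 80.2% lay in the cells with Notch3 alone, and without such cells none of the 3 genes still tested was called. In the TGF-beta and BMP list 17 of 23 genes were tested and 3 rose (14.9% of all genes tested did), with a median of 0.71. Among them, Tgfb2, a TGF-beta ligand, stood at 164 against 50.8, 34.9 and 54.6 CPM (1.72 ± 0.48), a call lost without WT replicate 2 (edgeR adjusted p = 0.142) and without the cells that have Notch3 alone (0.0706). Tgfb2 too entered the test only through the GOF library, where it is high.

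All 4 tested genes of antigen presentation rose, of 18 listed, while 14.9% of all genes tested did. Cd74, 1 of these 4, was low in every WT library and entered the test only through the GOF library, where it is high. The count thus partly reflects the filter on low counts. B2m, the light chain of class I molecules, stood at 366 CPM in GOF members and at 102, 122 and 121 CPM in WT members (1.55 ± 0.36, edgeR adjusted p = 0.00266), and the heavy chain H2-K1 at 302 against 102, 87.2 and 103 CPM (1.56 ± 0.35). No gene of the list was called without WT replicate 2 or by DESeq2. Of 26 interferon response genes only Bst2 had enough UMIs, and it was not called. Markers of other cells moved beside these results: immune genes summed to 775 CPM in GOF members against 25.4, 619 and 103 CPM, with Lyz2 at 433 against 25.4, 157 and 6.06 CPM. Their part in the result was not tested.

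Genes of oxidative phosphorylation, encoded in the nucleus, gave 0 rises and 9 falls among 24 tested, with a median of -0.92, and 20 of the 24 lay below every WT library (over all genes tested, 5.29% fell and 23.4% lay below). Of the 24, 15 have at most 5 kb of intron. In that class 94 of 864 tested genes fell, with a median of -0.25, and the part of intron length here was not tested. Ndufa1, a subunit of complex I, stood at 104 CPM in GOF members and at 407, 375 and 449 CPM in WT members (-2.04 ± 0.41, edgeR adjusted p = 0.000884). Cox7c, of complex IV, stood at 530 against 1576, 1421 and 1425 CPM (-1.51 ± 0.39, edgeR adjusted p = 0.00762, but 0.0602 without WT replicate 2). Cox4i1, by contrast, stood at 990 against 864, 1003 and 1025 CPM (-0.03 ± 0.37). The median was -0.54 in fibroblasts, -0.87 in epithelium and -0.63 in endothelium, and none of the 24 differed between members and fibroblasts in the test of that difference. The lower mt- share of the GOF members, 4.03% against 13.6 to 15.7%, moved with them, and its part was not tested. The 9 calls became 2 without WT replicate 2, 15 without WT replicate 1 and 2 in members with no Epcam UMI and at most 1 of the 4 keratins.

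Many of the genes with the largest fitted rises had no UMI in any WT member, so their fold has only a lower bound and their order is not known. Zfpm2, a cofactor of GATA factors, reached 304 CPM in GOF members (at least 32.3-fold higher, 440 kb of intron), Dclk1 254 CPM (at least 27.0-fold) and Adam12, a metalloproteinase, 227 CPM (at least 24.1-fold). Nr4a3, a nuclear receptor of the immediate early kind, reached 217 CPM (at least 23.1-fold). Atp6v0c, at 295 CPM, is a gene whose log2 difference was high in every class, with 8.37 in fibroblasts, 7.29 in epithelium and 6.67 in endothelium. The cells with Notch3 alone held 66.0% of the GOF UMIs of Zfpm2, 74.7% of Dclk1 and 59.2% of Adam12, whose levels in the other GOF members were 137, 85.1 and 122 CPM. They also held 97.0% of Piezo2 (a mechanosensitive channel), 98.2% of Hist1h1b and 86.3% of Wt1, but 14.3% of Nr4a3. Timp1 stood at 1819 CPM in GOF members and at 0, 0 and 6.06 CPM in WT members, a ratio of 580 (counting interval 104 to 22932). It kept a log2 difference of 7.25 without those cells.

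Among the largest falls, Gstp1, a glutathione transferase, stood at 20.5 CPM in GOF members and at 102, 410 and 333 CPM in WT members (-3.99 ± 0.54, edgeR adjusted p = 6.07e-06), with -4.70 in fibroblasts, -5.35 in epithelium and -3.93 in endothelium. Spink4 gave -4.09 in members and -4.71, -3.73 and -3.91 in those classes. Chchd10, a protein of the mitochondrial cristae (chr10:75933130-75937747, plus strand), did not: it stood at 29.2 against 152, 183 and 188 CPM in members (-2.68 ± 0.44, edgeR adjusted p = 9.04e-05) and at 32.4 against 13.2, 19.9 and 54.9 CPM in fibroblasts. The difference between these effects was -2.72 ± 0.67 (edgeR adjusted p = 0.0143), which was lost without WT replicate 1 (0.0732), without WT replicate 2 (0.183), without the cells that have Notch3 alone (0.182) and in members with no Epcam UMI and at most 1 of the 4 keratins (0.545). Thrsp stood at 8.77 against 127, 113 and 146 CPM (-3.91 ± 0.60), which was lost without WT replicate 3 (edgeR adjusted p = 0.217). Cpe, a peptide-processing enzyme, stood at 254 against 585, 1020 and 649 CPM (-1.64 ± 0.44, edgeR adjusted p = 0.00855), which was lost without WT replicate 2 (0.121).

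Markers of other cell types were low in members and not level between groups. Epithelial genes summed to 1991 CPM in GOF members against 432, 881 and 467 CPM, with Spp1 at 1654 CPM carrying most of it. Of the GOF Spp1 UMIs 64.5% lay in the 12 cells with Notch3 alone, and the other GOF members stood at 776 CPM. Endothelial genes summed to 133 against 102, 69.7 and 60.6 CPM, and glial genes to 71.1 against 76.2, 34.9 and 66.7 CPM. Pancreatic acinar genes summed to 11.7 CPM in GOF members and to 203, 139 and 1995 CPM in WT members, and 5 of 13 fell (5.29% of all genes tested did). No acinar gene could be tested without WT replicate 3, where their sum is highest, so this count is no support for a fall of the list. None of the 12 mitosis genes was tested. Their sum was 189 CPM in GOF members against 0, 26.2 and 12.1 CPM in WT members. The GOF UMIs included 51 of Top2a and 19 of Mki67, while WT members, with fewer UMIs in all, had none of either gene. Sfrp1, a Wnt antagonist, was called lower in GOF members with all its WT UMIs in replicate 1, at 0.974 CPM against 712, 0 and 0 CPM.

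Between members and fibroblasts the GOF effect differed for 57 of 7939 genes (0.718%), 51 in the positive direction (0.642%) and 6 in the negative (0.0756%). Leaving out 1 WT replicate gave 20 to 31 genes, and leaving out the cells with Notch3 alone gave 23. Besides Klf4 and Socs3, Timp1 differed by 5.94 (edgeR adjusted p = 0.00035), and that call was lost without the cells with Notch3 alone (0.161), without WT replicate 2 (0.829) and in members with no Epcam UMI and at most 1 of the 4 keratins (0.791). Of the 24 genes of oxidative phosphorylation and the 14 of calcium and potassium handling none passed, and of the 31 contractile genes 1 did. This was Actg2, by -4.43 ± 1.14, for which members stood within the WT range and fibroblasts stood at 16.3 CPM in the GOF library against 0, 0 and 2.74 CPM. Its call (edgeR adjusted p = 0.0211) was lost without WT replicate 1 (0.129) or 2 (0.505), without the cells with Notch3 alone (0.17) and in members with no Epcam UMI and at most 1 of the 4 keratins (0.826).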

How the data were processed

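The authors deposited unnormalised UMI counts for each gene in each called cell, made with Cell Ranger 7.0.0 (GOF, 32285 genes) and 3.0.2 (WT, 31053 genes), per the file headers; the build is mm10, per the submitters' processing notes. The 30406 shared genes were used. Members were chosen per cell by the stated rule, and the members and gene lists were chosen with earlier results of these data known. Counts were summed per library and class (39365 to 1030483 UMIs for members) and compared with edgeR 4.0.16 in R 4.3.3 (TMM, filterByExpr, quasi-likelihood test, Benjamini-Hochberg over all genes, threshold 0.05), which was also tested on simulated data. CPM omits the TMM factors, which the log2 differences include. Alternatives were limma-voom (limma 3.58.1), DESeq2 1.42.0, other scaling, filters and cell gates, each WT replicate left out, and Scrublet doublets (scanpy 1.11.5) left out. Intron lengths and coordinates came from GENCODE M21. Genes were named by rule: those of the gate; 6 of the highest and up to 6 called per list; the 15 largest rises and falls among calls with at least 50 CPM; the 5 largest differences from fibroblasts in each direction; and the 25 highest and 10 lowest ratios to WT fibroblasts. Predicted, mitochondrial, ribosomal and sex-linked genes were left out. The WT libraries' member counts differed beyond sampling noise (chi-square per degree of freedom 2.62 to 3.51) and were kept as 3 samples. Floors of 3 counts and intervals cover counting error only. Some results are not reported here.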

Additional observations from a re-analysis of the deposited data

Results flagged for a closer look

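The GOF effect differed between members and fibroblasts for 57 genes in the edgeR test of that difference, listed here by the 5 largest in each direction, with SE and adjusted p. Toward higher in members these were Chil3 (14.94, SE 3.32, edgeR adjusted p = 0.00336), Sfrp2 (8.95, SE 2.13, 0.0103), Nkain4 (8.87, SE 2.24, 0.02), Pdpn (8.68, SE 2.13, 0.0145) and Rtn1 (8.65, SE 2.19, 0.0205). Each had no UMI in any WT member, so the fitted values depend on the prior count and are no measure of size. Of the GOF UMIs 89.7% for Sfrp2, 80.0% for Pdpn and 64.7% for Rtn1 lay in the 12 members with Notch3 and no Myh11. Without such cells edgeR adjusted p was 0.946 for Sfrp2, 0.569 for Pdpn, 0.283 for Rtn1 and 0.0583 for Nkain4, and for Chil3 it was 1 without WT replicate 3. Without WT replicate 2 the calls of Sfrp2 (0.94), Nkain4 (0.617), Pdpn (0.386) and Rtn1 (0.823) were lost. Levels in fibroblasts of the GOF library and of WT replicates 1, 2 and 3 were 0, 0, 0.994 and 76.8 CPM for Chil3, and 136, 124, 1050 and 230 CPM for Nkain4.

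Toward lower in members these were Sfrp1 (-4.64, SE 1.23, edgeR adjusted p = 0.029), Fhl2 (-4.43, SE 1.20, 0.0375), Actg2 (-4.43, SE 1.14, 0.0211), Mtus2 (-4.08, SE 0.95, 0.00813) and Cpe (-3.20, SE 0.82, 0.0211). For Cpe, fibroblasts stood at 21.3 CPM in the GOF library and at 13.2, 0.994 and 11.0 CPM in the WT libraries, so members were lower and fibroblasts higher in the GOF library. Fhl2, Actg2 and Mtus2 were nearly at 0 in WT fibroblasts. Without the cells that have Notch3 and no Myh11 the calls of Fhl2 (edgeR adjusted p = 0.121), Actg2 (0.17), Mtus2 (0.0689) and Cpe (0.194) were lost. Without WT replicate 2 these were at 0.679, 0.505, 0.361 and 0.645, and in members with no Epcam UMI and at most 1 of 4 keratins at 0.729, 0.826, 0.749 and 1. Sfrp1 was lost without WT replicate 1 (1) or 2 (0.06).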

How the results depend on the processing

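GOF calls in members (691) became 1079 with limma-voom, 137 with DESeq2, 187 over genes with at most 5 kb of intron (fewer genes tested), 316 with the strict epithelial limit and 426 with the gate on thinned cells, and ranged from 337 to 1023 without 1 WT replicate. Calls of a difference from fibroblasts (57) became 18 with no filter on low counts, 20 with at most 5 kb of intron, 3 with the strict epithelial limit, 28 without called doublets, 26 with at least 5 muscle genes and 23 without cells that have Notch3 alone, and ranged from 20 to 31 without 1 WT replicate. The GOF share became 1.01% with the strict limit, and the share of GOF members on the pericyte side of the split 2.70% (6.49% by Notch3 alone). Dcn reversed to -0.27 (edgeR adjusted p = 0.89) under the strict limit, Krt18 to 0.66 and Lgals4 to 0.57 with the thinned gate, and the Sfrp1 difference, -5.78 without WT replicate 3, to 4.53 without WT replicate 1, which held all its WT UMIs. The cause of the others was not tested. Of 103 named called genes, limma-voom still called 101 and DESeq2 44 of 89 with a value. The settings with at least 5 muscle genes and without Notch3 alone were chosen after seeing the data. Depth in WT replicate 1 (9 members) limits genes near 25.4 CPM, the level of 1 UMI there. No paired analysis was possible because the GOF label carries no replicate number. Without 1 WT replicate the lone GOF library is still assumed to vary like the WT libraries.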
